A study of Homo sapiens with 6 samples.

Results

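The genes described are the 92 H/ACA small nucleolar RNAs (SNORA symbols) and Cajal body small RNAs (SCARNA symbols) in a global run-on sequencing study of A375, an established human melanoma cell line. Members were chosen by symbol alone. The deposited tables held 97 rows for 93 such symbols, 1 row was kept per symbol, by the largest average over the gene body columns, and SNORA59B was dropped because its values were identical to those of SNORA59A. This left 77 SNORA and 15 SCARNA genes among 12438 symbols. All 3 groups were cultures of the same line kept for 48 h with the solvent DMSO, with 25 µM leflunomide or with 25 µM A771726, and each group had 2 samples. Leflunomide blocks dihydroorotate dehydrogenase, an enzyme of pyrimidine synthesis, through A771726, its active form, in which the isoxazole ring is open. Nothing in the labels says that the 2 samples of a group were separate experiments, so the p-values below measure only the spread between these samples, which may be technical. One cell line at 1 dose and 1 time was studied.

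H/ACA RNAs fold into hairpins joined by a hinge that carries box H (ANANNA), and end with an ACA box close to the 3′ end. Bound to dyskerin, NHP2, NOP10 and GAR1, they guide the conversion of uridine to pseudouridine in ribosomal RNA. Cajal body RNAs guide modification of spliceosomal RNAs, some of them also carry C/D domains, and many hold a CAB box (TGAG in the DNA) that is bound by WRAP53. Most human genes of both kinds lie inside introns of host genes, and the RNA is cut out of the host transcript rather than made from a promoter of its own.

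Of the 92 genes, 91 were matched to GENCODE release 29 on GRCh38 (SCARNA27 was not), and 90 of these 91 lay inside another gene on the same strand. There were 70 distinct host genes, and 12 of them held 2 or more members, 32 members in all. The hosts were ribosomal protein genes for 17 members, translation factor genes for 8, non-coding genes for 19 and other protein-coding genes for 46. In the annotated RNAs, ACA stood exactly 3 bases before the 3′ end in 60 of 77 SNORA and 8 of 14 SCARNA sequences. ANANNA occurred in the middle part (from 1/3 to 2/3 of the length) in 74 of 77 and 12 of 14, and TGAG occurred anywhere in 36 of 77 and 9 of 14. These letters were searched on the RNA strand only, and a match is a description of the sequence. In stretches of 134 bases from the middle of 19698 protein-coding transcripts, 1 per gene, the shares were 1.84% for ACA at that place, 50% for ANANNA in the middle part (from 1/3 to 2/3 of the length) and 47.8% for TGAG. The TGAG share of the SNORA genes therefore lay near that of other transcripts.

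The sequences below are those of the RNAs on which the values turn, as annotated in GENCODE release 29 on GRCh38, in DNA letters, with ANANNA in the middle part (from 1/3 to 2/3 of the length) and ACA 3 bases from the end in capitals. SNORA51 (chr20:2655067-2655198, plus strand, at an exon edge of NOP56) had the highest gene body density. SNORA57 (chr11:62665422-62665570, plus strand, within an annotated exon of CSKMT) had the highest promoter density in DMSO. SNORA24 (chr4:118279190-118279320, plus strand, exon of SNHG8) and SNORA55 (chr1:39567374-39567508, minus strand, intron of PABPC4) had low unadjusted p-values with A771726. SNORA7A (chr3:12840312-12840450, minus strand, exon of RPL32) had the lowest p between the compounds. SNORA71C (chr20:38429670-38429803, minus strand) and SNORA71D (chr20:38433865-38433998, minus strand) are related copies in introns of SNHG17. SCARNA4 (chr1:155925958-155926086, minus strand, intron of KHDC4) and SCARNA12 (chr12:6967337-6967606, minus strand, exon edge of PHB2) were the densest SCARNA genes. An exon here can belong to an isoform that keeps the intron.
SNORA51: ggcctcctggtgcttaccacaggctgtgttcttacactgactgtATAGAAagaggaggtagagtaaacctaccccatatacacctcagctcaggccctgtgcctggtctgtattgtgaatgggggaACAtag
SNORA57: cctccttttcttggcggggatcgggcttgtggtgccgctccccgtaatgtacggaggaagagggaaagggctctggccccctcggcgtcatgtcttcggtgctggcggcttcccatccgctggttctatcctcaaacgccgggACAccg
SNORA24: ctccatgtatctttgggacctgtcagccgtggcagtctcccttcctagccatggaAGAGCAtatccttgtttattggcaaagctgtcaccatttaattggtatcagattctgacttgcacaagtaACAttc
SNORA55: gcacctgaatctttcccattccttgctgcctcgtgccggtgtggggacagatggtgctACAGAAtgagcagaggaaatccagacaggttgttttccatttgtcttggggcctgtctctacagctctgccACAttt
SNORA7A: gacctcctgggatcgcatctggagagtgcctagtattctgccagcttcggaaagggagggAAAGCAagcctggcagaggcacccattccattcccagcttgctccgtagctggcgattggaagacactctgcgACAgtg
SNORA71C: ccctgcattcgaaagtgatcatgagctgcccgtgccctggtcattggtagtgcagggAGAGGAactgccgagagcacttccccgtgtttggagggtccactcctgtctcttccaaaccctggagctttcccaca
SNORA71D: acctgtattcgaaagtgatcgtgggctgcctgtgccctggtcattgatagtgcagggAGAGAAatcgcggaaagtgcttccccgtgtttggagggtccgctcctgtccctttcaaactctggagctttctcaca
SCARNA4: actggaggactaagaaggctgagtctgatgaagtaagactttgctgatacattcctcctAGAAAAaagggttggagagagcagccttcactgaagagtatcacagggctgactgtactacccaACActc
SCARNA12: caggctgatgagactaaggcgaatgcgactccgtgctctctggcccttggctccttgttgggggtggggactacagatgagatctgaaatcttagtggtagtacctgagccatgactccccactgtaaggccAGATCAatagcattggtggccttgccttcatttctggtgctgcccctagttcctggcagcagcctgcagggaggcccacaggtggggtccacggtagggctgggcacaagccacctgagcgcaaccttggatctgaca

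The deposited tables give, for each gene and group, a promoter density, a gene body density and a traveling ratio (promoter over gene body), each as a mean of the 2 samples. No per-sample column was used, because none was present in the tables analysed here. The paired values behind each mean were recovered by arithmetic from the 3 means, which fix them where 1 solution exists. This gave 6 gene body values for 67 members and 6 promoter values for 64. A pair was not recovered where both promoter values were 0, as for SNORA28 and SCARNA22 with A771726. Nor was it where several solutions existed, as for SNORA51 in DMSO. The members with 6 values were thus selected partly by promoter signal, also that under treatment. Library 1 and library 2 below are the libraries in which 1 promoter read was worth less and more, and they are not the replicate letters of the labels. For members whose libraries could not be told apart, the order within a pair carries no meaning. One promoter read was worth 0.0438 and 0.0520 in DMSO, 0.0347 and 0.0376 under leflunomide, and 0.0241 and 0.0313 with A771726, so the scaling differed between libraries. No row had a gene body density of 0 in DMSO, against 103 symbols under leflunomide and 163 with A771726. The highest finite traveling ratio was 7.50 in DMSO, 208 under leflunomide and 550 with A771726. A finite ratio was listed for all 12438 symbols in DMSO, 11888 under leflunomide and 11390 with A771726. In the deposited rows the DMSO values are thus bounded where the treated ones are not, and at low densities the part of that bound in a difference from DMSO cannot be told apart from the treatment.

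The deposited windows were much longer than these RNAs. The value of 1 read in genes up to 1000 bases long placed the promoter window at about 601 bases and the gene body window at about the gene's length plus 2705 bases. The plot of window length against gene length shows the fit, in which all 14 members used lay within 0.05 of the line. A member of the median length, 134 bases, thus had a gene body window of about 2839 bases, of which at most 4.72% could lie inside the RNA, and at most 10.9% for the longest RNA. By length, gene body density at a SNORA or SCARNA gene thus covers mostly the surrounding stretch, usually the host gene, and how many of its reads came from the RNA itself cannot be told apart. Where the windows were placed is not given in the sources used here. For 28 members, another member lay within the length of the gene body window, so reads can be shared between them. The counts below treat every member as 1 all the same.

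**Figure D1:**
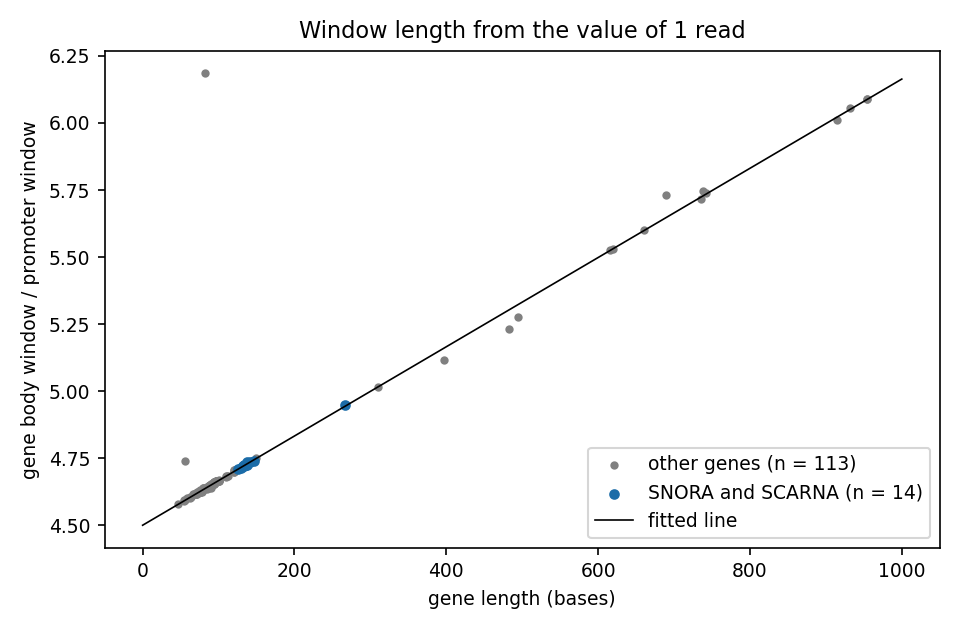
Gene length in bases (x axis) against the ratio of the gene body window to the promoter window (y axis), from the value of 1 read, for 127 short genes, with the fitted line. The 14 SNORA and SCARNA genes (blue) lie on the line.

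In reads, the members were thinly covered. A member had a median of 12 reads per library in the gene body, with values from 0 to 929, and a median of 3.00 reads per library at the promoter. Of 388 gene body values in reads, 82.7% lay within 0.1 of a whole read, where an even spread would give 20%. One gene body read of a member of median length was worth 0.00927 and 0.0110 in the DMSO libraries and 0.00509 and 0.00663 in those with A771726. Many members of low density therefore rest on a few reads, and counting error alone is large for them. The melanocyte lineage factor SOX10 had gene body densities of 0.329, 0.330 and 0.273 with DMSO, leflunomide and A771726. The pigment cell genes MITF, PMEL and MLANA were at most 0.0226, and PECAM1 of endothelium and COL1A1 of fibroblasts at most 0.0083.

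Gene body density of the members was above that of most genes. Their medians were 0.121 (DMSO), 0.104 (leflunomide) and 0.0622 (A771726), as against 0.0196, 0.0188 and 0.0128 over all 12438 symbols. High density was not particular to the members. Box C/D (SNORD) symbols had higher medians of 0.204, 0.187 and 0.127, and host genes had similar ones of 0.109, 0.094 and 0.065. SNORA genes had medians of 0.151, 0.137 and 0.101 and SCARNA genes of 0.0502, 0.0419 and 0.0277. SNORA51 in NOP56, a core protein gene of box C/D particles, stood far above the others with 5.15, 4.07 and 3.71. SNORA76 (now SNORA50C) in SNHG25 followed with 1.24, 0.947 and 0.559. No other member exceeded the 0.791 of SNORA44 in DMSO. Members in ribosomal protein genes had a median of 0.308 in DMSO, those in translation factor genes 0.302, those in non-coding hosts 0.144 and those in other protein-coding genes 0.0737.

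With leflunomide, gene body densities of the members lay mostly below DMSO. The median log2 change of the group means was -0.48 over the 91 members past the filter on low values, against -0.06 over all 8706 genes past it. Below 0 were 69 of 91 members, where 4817 of 8706 genes were. At least 2-fold lower were 13 of 91 members (14.3%), where 4.49% of all genes were, and 1 was at least 2-fold higher, where 1.84% of all genes were. SNORA genes had a median of -0.50 and SCARNA genes of 0.12, a difference that was not tested. The 120 box C/D (SNORD) symbols, identical rows counted once, had a median of -0.33 and the 55 host genes in the tables one of -0.23. Of these, 8 SNORD symbols (6.67%) and 1 host gene (1.82%) were at least 2-fold lower.

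With A771726, the shift in density was larger for members and for all genes. The members' median log2 change was -0.97 against -0.52 over all genes. Below 0 were 84 of 91 members, where 7445 of 8706 genes were. At least 2-fold lower were 42 of 91 (46.2%), where 18.5% of all genes were, and 0 were at least 2-fold higher, where 0.839% of all genes were. Of the 42, SNORA36C, SNORA59A and SCARNA3 were listed at 0 with A771726. SNORA genes had a median of -0.97, SCARNA genes of -0.59, SNORD symbols of -0.80 and host genes of -0.82. At least 2-fold lower were also 47 of 120 SNORD symbols (39.2%) and 22 of 55 host genes (40%), shares nearer to that of the members. Both compounds were compared with the same 2 DMSO samples, so these values are not independent of each other. Read sums, which are not corrected for the depth of a library, can be set beside the densities for part of the members only. For the 39 members whose libraries are told apart, DMSO libraries summed to densities of 5.89 and 5.44 from 639 and 496 gene body reads. A771726 libraries summed to 3.45 and 3.45 from 680 and 522 reads, so the read sums overlapped. Each read was worth less in the A771726 libraries, and the part of that scaling in the shift was not tested.

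Between the compounds, which were given at the same dose and for the same time, the members lay near the rest of the genes. The median log2 change of A771726 against leflunomide was -0.55 for members and -0.47 for all genes. At least 2-fold lower were 18 of 91 members (19.8%), against 12.4% of all genes, and 0 were at least 2-fold higher, against 1.03%. Relative to the median gene the members' difference between the compounds was -0.08.

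By their medians, dense genes as a whole also lay lower, and the members are dense. Among the 750 other genes with a mean gene body density of at least 0.105, the members' median, the median change was -0.19 under leflunomide and -0.67 with A771726. At least 2-fold lower were 3.33% of them with leflunomide, where 4.49% of all genes were, and 25.5% with A771726, where 18.5% were. Among the 248 other genes above 0.226 the medians were -0.29 and -0.68. The part of density in the members' values was not tested.

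**Figure D2:**
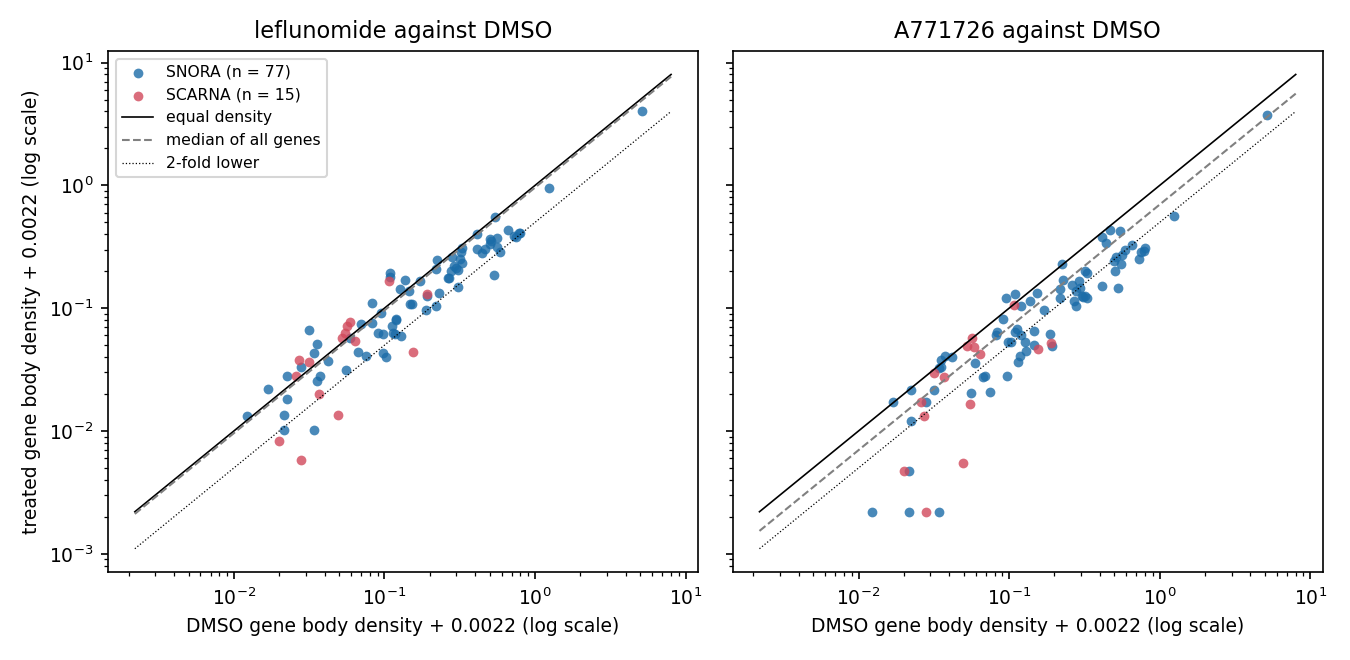
Gene body density plus 0.0022 in DMSO (x axis) against the treated group (y axis), both on log scales, as group means for 77 SNORA (blue) and 15 SCARNA (red) genes. Most points lie under the line of equal density, and with A771726 many lie near or under the dotted line of 2-fold lower density; 4 genes listed at 0 with A771726 sit at 0.0022.

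The recovered libraries show how far these differences exceed the spread within a group. Among the 67 members with 6 values, both leflunomide libraries were below both DMSO libraries for 29 (43.3%), where 21.9% of 4710 genes with 6 values were, and above for 5, where 13.4% were. Both A771726 libraries were below both DMSO libraries for 40 members (59.7%), where 55.5% of all genes were, and above for 1, where 1.95% were. The share of separated members with A771726 thus lay near that of all genes. A771726 was below leflunomide without overlap for 34 members (50.7%), where 54.8% of genes were, and above for 3, where 2.27% were.

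No member passed the test on all 6 libraries. With limma on log2 of gene body density, 0 of 67 members and 0 of 4710 genes (0%) had an adjusted p under 0.05 in any of the 3 comparisons. At an unadjusted p under 0.05, limma gave 11 of 67 members with leflunomide (10 of them lower), where 4.56% of all genes passed. The count was 32 with A771726, all lower, where 22% of genes passed, and 13 for A771726 against leflunomide, all lower, where 14.3% passed. The smallest adjusted p of a member by limma was 0.999 with leflunomide, 0.137 with A771726 and 0.343 between the compounds. Without A771726 library 1, limma called 109 of 3227 genes for A771726 against DMSO, all lower, among them the members SCARNA1, SNORA30 and SNORA72 (3 of 39). That count rests on a rule for telling the libraries apart that was loosened after such values had been seen, and under the stricter first rule limma called 28 of 1775 genes, all lower, with 1 of 13 members. Without A771726 library 2, limma called 0 genes under either rule (402 of 3227 and 193 of 1775 at an unadjusted p under 0.05). An exact permutation test of 2 against 2 libraries cannot go below 0.333. The values below are therefore descriptions of these libraries.

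The SNORA genes in the non-coding gene SNHG12 lay lower with both compounds. SNORA44 had gene body densities of 0.844 and 0.738 in DMSO, 0.404 and 0.406 under leflunomide, and 0.252 and 0.357 with A771726. SNORA61 had 0.834 and 0.666, then 0.419 and 0.335, then 0.311 and 0.259. SNORA16A had 0.847 and 0.720, 0.367 and 0.446, and 0.397 and 0.179. In each of these, both DMSO libraries were above all 4 treated libraries. For SNORA44 limma gave a log2 change of -1.39 (SE 0.27, adjusted p = 0.137) with A771726 and -0.96 (SE 0.27, adjusted p = 0.999) with leflunomide. The host SNHG12 had log2 differences of -0.97 and -1.22 in the group means. These 3 RNAs lie close together in 1 host and their windows can share reads, so they cannot be read as 3 separate observations.

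The 3 members in EIF4A2, a translation initiation helicase gene, lay lower with A771726 and less so with leflunomide. SNORA81 had 0.329 and 0.325 in DMSO, 0.260 and 0.198 under leflunomide, and 0.112 and 0.124 with A771726. The 3 groups of SNORA81 did not overlap, and limma gave -1.46 (SE 0.26, adjusted p = 0.137) with A771726. SNORA63 had 0.322 and 0.231, 0.289 and 0.233, and 0.0656 and 0.137, with overlap between DMSO and leflunomide only. SNORA4 had 0.444 and 0.374, 0.270 and 0.327, and 0.0814 and 0.218. EIF4A2 itself had log2 differences of -0.55 and -1.22 with the 2 compounds. The DMSO libraries of SNORA4 were above all treated ones. The 3 members share 1 host and their windows can share reads, so they may not be 3 separate observations.

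TAF1D, the gene of a subunit of the polymerase I factor SL1, holds 6 members. Their windows can share reads, so they may not be 6 separate observations. Their log2 differences in the group means ran from -0.57 to -0.06 under leflunomide and from -1.33 to -0.76 with A771726, and the host's were -0.16 and -1.10. SNORA40 had 0.188 and 0.446 in DMSO, 0.294 and 0.208 under leflunomide and 0.123 and 0.126 with A771726. Its DMSO libraries were far apart and enclosed those with leflunomide. SNORA25 had 0.260 and 0.262, 0.206 and 0.143, and 0.168 and 0.139, so DMSO was above both treatments.

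Other members of high density gave the same picture with exceptions. SNORA24 in the non-coding gene SNHG8 had 0.419 and 0.587 in DMSO, 0.390 and 0.338 under leflunomide, and 0.196 and 0.199 with A771726, and its 3 groups did not overlap. SNORA57 had 0.933 and 0.523 in DMSO, 0.416 and 0.356 under leflunomide, and 0.319 and 0.182 with A771726, again with no overlap. SNORA65 in the ribosomal protein gene RPL12 had 0.590 and 0.718, 0.461 and 0.398, and 0.392 and 0.262, also without overlap. SNORA75, which lies in the nucleolin gene NCL, was level by comparison. Its 6 values ran from 0.370 to 0.440, with 0.380 and 0.440 in DMSO and 0.382 and 0.370 with A771726. SNORA48 in EIF4A1 had 0.661 and 0.264 in DMSO and 0.494 and 0.362 with A771726, so the DMSO libraries enclosed the treated ones.

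SNORA24 and SNORA55 fall outside the rule for named genes and were chosen after their values were seen. SNORA55 in PABPC4, a poly(A)-binding protein gene, had 0.121 and 0.103 in DMSO, 0.0660 and 0.0557 under leflunomide and 0.0288 and 0.0397 with A771726. Its 3 groups did not overlap, and limma gave -1.66 (SE 0.32, adjusted p = 0.137) with A771726. The host PABPC4 had a log2 difference of -0.89.

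SNORA7A, in the ribosomal protein gene RPL32, differed between the compounds. It had 0.127 and 0.0879 in DMSO, 0.171 and 0.183 under leflunomide and 0.0712 and 0.0529 with A771726. Leflunomide was above DMSO and A771726 below it, without overlap. Limma gave a log2 difference of -1.49 for A771726 against leflunomide (95% interval from -2.26 to -0.73, adjusted p = 0.343). RPL32 itself had log2 differences of -0.46 with leflunomide and -0.92 with A771726.

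The related copies in SNHG17 had unlike values, a difference that was not tested. SNORA71C had 0.116 and 0.0989 in DMSO, 0.165 and 0.215 under leflunomide and 0.132 and 0.126 with A771726, so both treatments were above DMSO. SNORA71D had 0.204 and 0.0989, 0.117 and 0.0954, and 0.122 and 0.139, so DMSO overlapped both treatments and A771726 lay above leflunomide. SNORA71A had 0.187 and 0.1004, 0.132 and 0.141, and 0.0661 and 0.0294, with A771726 below the rest. SNORA71C and SNORA71D, printed above, were identical at 116 of 134 aligned bases (86.6%), and 13 pairs of members were at least 80% identical, up to 91.1% for SNORA14A and SNORA14B. Reads from the RNA itself could be split between such copies, while most of each window lies outside it, and the values of these members are uncertain.

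Most members at the ends of the range were of low density. SNORA68, among the lowest with leflunomide, was a dense exception, with 0.649 and 0.407 in DMSO and 0.163 and 0.205 under leflunomide. Its A771726 pair was not recovered. SNORA30 in SRCAP had 0.102 and 0.0992, then 0.0441 and 0.0319, then 0.0816 and 0.0199, so both treatments lay below DMSO. SNORA41 in EEF1B2 had 0.0927 and 0.0991 in DMSO and 0.0554 and 0.0263 under leflunomide. SNORA72 in RPL30 had 0.148 and 0.231, 0.176 and 0.0717, and 0.0866 and 0.0066, with A771726 below DMSO. SNORA12 in CWF19L1 had 0.0277 and 0.0110, 0.0146 and 0.0079, and 0 and 0.0051, a level of at most a few reads. SNORA59A and SNORA36C were listed at 0 in 1 leflunomide library and in both A771726 libraries, and SNORA79, which did not pass the filter, was listed at 0 with A771726. The 1 member at least 2-fold higher with leflunomide was SNORA70G, the copy with no host, with 0.0370 and 0.0220 in DMSO, 0.0732 and 0.0556 under leflunomide, and 0 and 0.0386 under A771726.

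Among the Cajal body RNAs, SCARNA4 and SCARNA12 were the densest. SCARNA4 had 0.111 and 0.0992 in DMSO, 0.162 and 0.167 under leflunomide, and 0.0408 and 0.166 with A771726. Leflunomide was above DMSO, and the A771726 libraries were far apart. SCARNA12 in PHB2, a prohibitin gene, had 0.251 and 0.126, 0.119 and 0.137, and 0.0680 and 0.0316. A771726 was below both other groups, and limma gave -1.89 (SE 0.48, adjusted p = 0.139) against DMSO. SCARNA8 in HAUS6 had 0.0278 and 0.0771 in DMSO, 0.0368 and 0.0841 under leflunomide, and 0.0153 and 0.0133 with A771726, which was below both.

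The other SCARNA genes were low and rested on few reads. SCARNA14 in TIPIN had 0.0278 and 0.0660 in DMSO, 0.0147 and 0.0080 under leflunomide, and 0 and 0.0066 with A771726. Its groups did not overlap, and limma gave -3.36 (SE 0.75, adjusted p = 0.137), a value that depends on the pseudocount. SCARNA18 had 0.0136 and 0.0220, 0.0073 and 0.0049, and 0 and 0.0051. SCARNA3 had 0.0329 and 0.0185 in DMSO, 0 and 0.0073 under leflunomide, and was listed at 0 in both A771726 libraries. SCARNA11 had 0.0741 and 0.231, 0.0440 and 0.0398, and 0.0066 and 0.0814, so DMSO and A771726 overlapped. The other 7 SCARNA genes (SCARNA1, SCARNA6, SCARNA10, SCARNA13, SCARNA15, SCARNA21 and SCARNA22) had group means that differed from DMSO by less than 1 on the log2 scale with either compound, from -0.88 to 0.40. SCARNA27 had group means of 0.025, 0.0353 and 0.0110, with only its A771726 pair recovered.

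**Figure D3:**
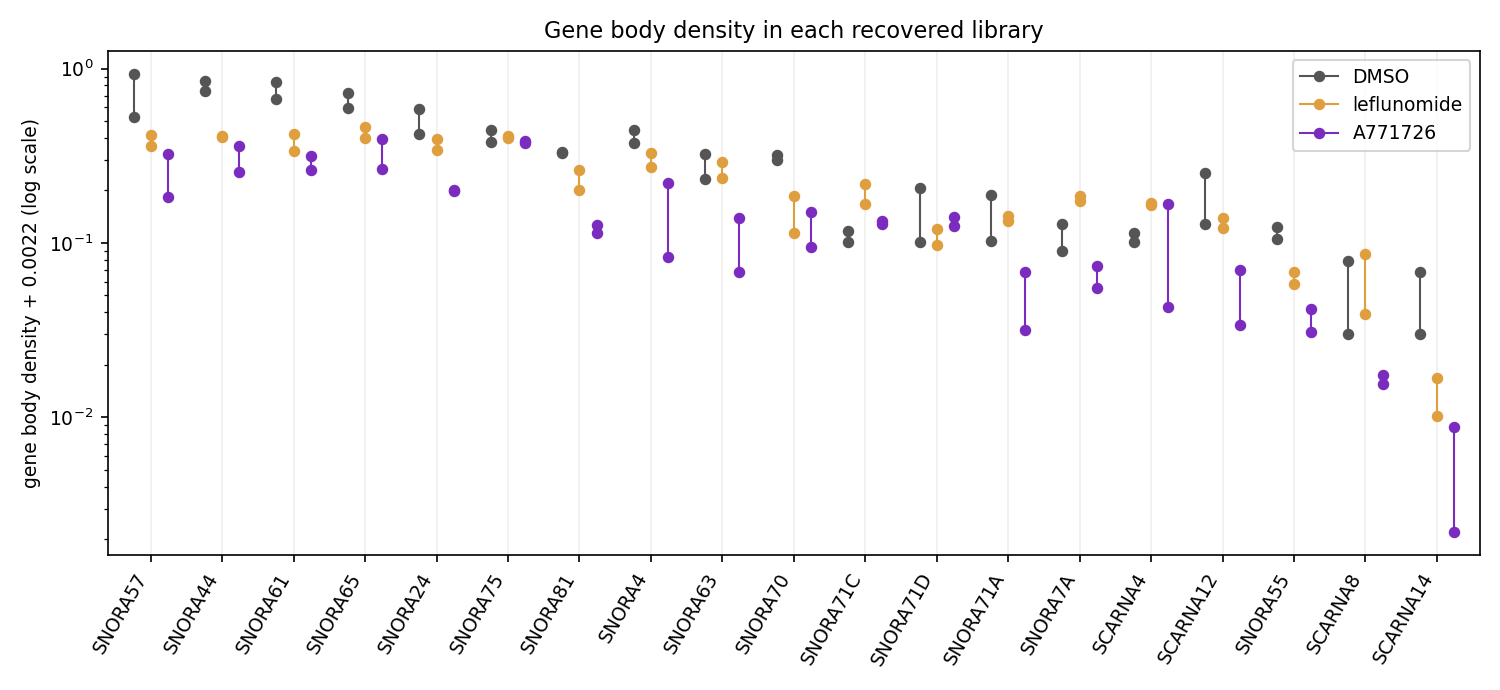
Gene body density plus 0.0022 (log scale) in each of 6 recovered libraries for 19 members, with the 2 libraries of a group joined by a line. SNORA81, SNORA24 and SNORA55 show 3 separate groups, SNORA75 is level, and the DMSO libraries of SCARNA8 and SCARNA14 are wide apart.

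Members followed the level of their host genes closely and the change of their host genes loosely. Over 72 pairs of a member and a measured host (54 hosts), Pearson's r of log2 gene body density was 0.93 in DMSO, 0.96 under leflunomide and 0.93 with A771726. For the log2 change it was 0.26 with leflunomide, 0.42 with A771726 and 0.41 between the compounds. The points share libraries, several share a host, and the windows of a member and its host can overlap and so share reads. With A771726, 48 of 72 members lay within 0.5 of their host on the log2 scale and the median gap was -0.05. With leflunomide, 49 of 72 lay within 0.5, 48 were below their host and the median gap was -0.22.

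**Figure D4:**
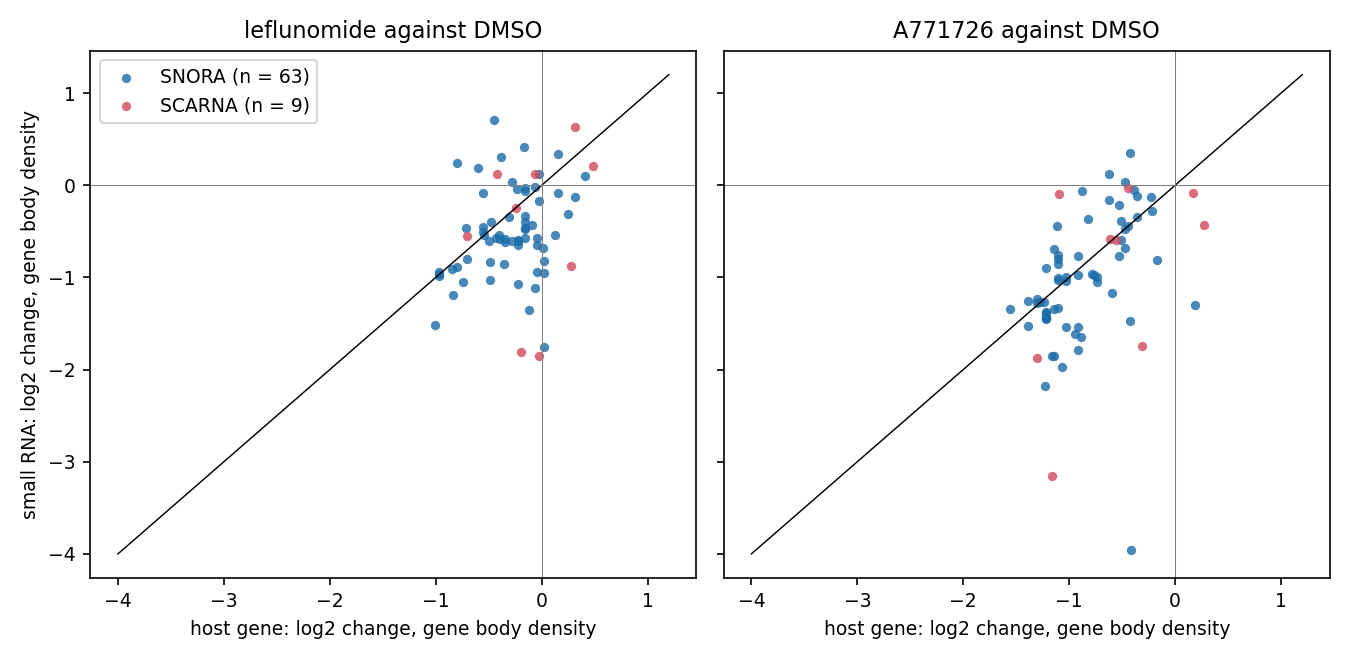
Log2 change of gene body density of the host gene (x axis) against that of the small RNA inside it (y axis), for 63 SNORA (blue) and 9 SCARNA (red) genes, with the line of equal change. Most hosts and members lie below 0 with A771726, and members spread more widely than hosts.

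Promoter medians of the SNORA genes, the host genes and the SNORD symbols were below 0 with both compounds. Those of the SCARNA genes and of all genes were not. What the promoter window of an intronic RNA holds is not known here, since the window positions are not given. The median log2 change over 88 members was -0.39 with leflunomide, against 0.22 over 8838 genes, and -0.71 with A771726, against 0.00. The SNORA genes had promoter medians of -0.41 and -0.84 with the 2 compounds and the 15 SCARNA genes of 0.00 and 0.05, a difference that was not tested. Host genes had promoter medians of -0.14 with leflunomide and -0.50 with A771726, and SNORD symbols of -0.04 and -0.415. At least 2-fold lower were 16 members (18.2%) with leflunomide, where 16% of all genes were, and 36 (40.9%) with A771726, where 26% were. At least 2-fold higher were 10 members with each compound, where 30.6% and 20.8% of all genes were. For A771726 against leflunomide the medians were -0.38 and -0.30, with 25 members at least 2-fold lower, where 30.6% of genes were, and 7 higher, where 13.5% were.

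All 8 members in translation factor genes had a lower promoter mean with both compounds, with medians of -1.08 and -1.49. Of all genes past the filter, 3561 of 8838 were lower with leflunomide and 4348 with A771726. Of the 8 members, 3 lie in EIF4A2 and 2 in EIF4A1, so they may not be 8 separate observations. Promoter values rested on a median of 3.00 reads per member and library. Members in ribosomal protein genes had promoter medians of -0.41 and -0.55, those in non-coding hosts -0.45 and -0.66, and those in other protein-coding genes -0.12 and -0.62. SNORA63 had promoter densities of 0.584 and 0.633 in DMSO, 0.139 and 0.188 under leflunomide and 0.285 and 0.0939 with A771726, all 4 treated libraries below DMSO. SNORA48 had 0.895 and 0.624, 0.312 and 0.228, and 0.0878 and 0.487, again without overlap. SNORA57 held the highest promoter mean in DMSO, with libraries of 2.11 and 3.60, then 2.35 and 2.52, and 1.80 and 2.17, so DMSO overlapped both treatments.

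**Figure D5:**
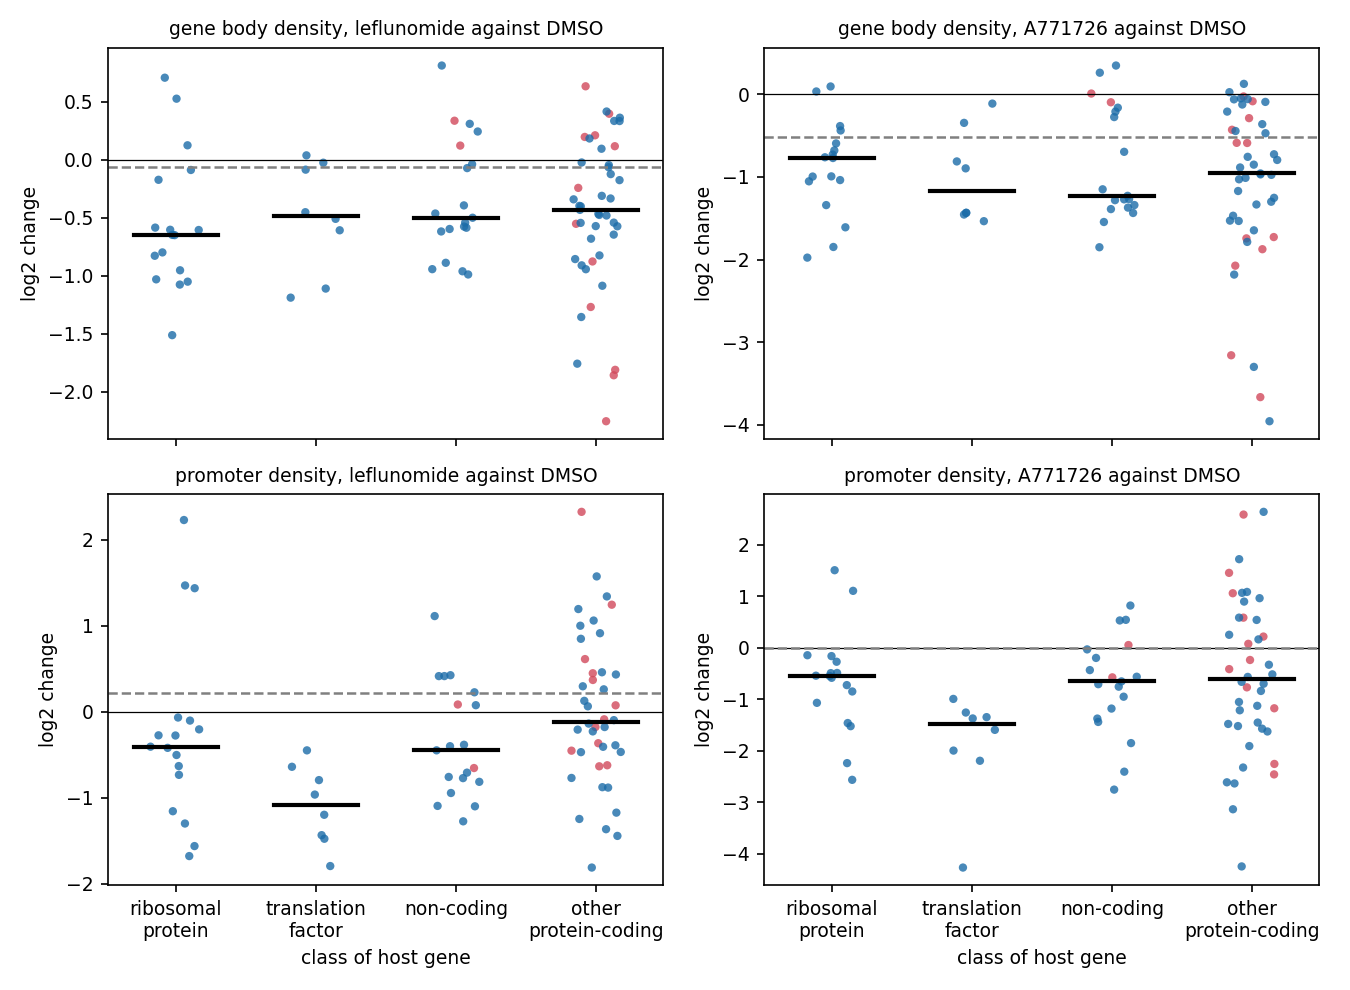
Log2 change of gene body density (top) and promoter density (bottom) with leflunomide (left) and A771726 (right) for members grouped by class of host gene, SNORA in blue and SCARNA in red. Bars are class medians and the dashed line is the median of all genes. The 8 members in translation factor genes, 3 of them in EIF4A2 and 2 in EIF4A1, all lie below 0 in the promoter panels.

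The traveling ratio, which is high when polymerase signal is concentrated near the start, showed no common direction. Over 69 members with a ratio above 0 in every group the median log2 change was -0.0007 with leflunomide, where 5173 genes had 0.27, and 0.16 with A771726, where they had 0.42. With leflunomide 14 members were at least 2-fold higher and 14 lower, where 27.9% and 15.3% of genes were. With A771726 the counts were 17 and 13, where 34.6% and 17.1% of genes were. Between the compounds they were 16 and 15, where 26.9% and 20.9% were.

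Single ratios rested on few reads in one or the other window. Ranked over 57 members with a promoter mean of at least 1 read per library in every group, SNORA23 in IPO7 was highest with A771726, with mean ratios of 2.28 in DMSO, 8.44 under leflunomide and 16.2 with A771726. Its promoter values were 0.131 and 0.104 in DMSO, 0.104 and 0.226 under leflunomide and 0.192 and 0.344 with A771726. Its gene body values with A771726 were 0.0100 and 0.0260, which is 2 and 4 reads. SNORA70 in RPL10, the highest with leflunomide, had ratios of 0.155, 0.999 and 1.08, with promoter values of 0.0438 and 0.0520 in DMSO, which is 1 read in each library. SNORA1 in TAF1D was lowest with A771726, at 0.963, 0.447 and 0.163, with 2 promoter reads in 1 A771726 library and 0 in the other. SNORA53 in SLC25A3 was lowest with leflunomide, at 2.52, 0.517 and 1.94, with 2 promoter reads in each leflunomide library. Ranked over the 66 members with at least 1 promoter read in all over the 2 libraries of each group, a looser floor under which these values had first been seen, SNORA20 was lowest with A771726 (3.37, 1.64 and 0.295) and SNORA58 with leflunomide (2.42, 0.408 and 0.306).

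Lists of pathway genes had median differences in gene body density close to those of all genes, while single genes differed more. Of the 6 genes of H/ACA particle proteins and assembly factors (DKC1, NHP2, NOP10, GAR1, NAF1 and SHQ1), 5 passed the filter, with a median gene body change of 0.10 under leflunomide and -0.53 with A771726, close to all genes. NOP10, a core protein gene, was the only one at least 2-fold lower with A771726, at 0.0739, 0.0793 and 0.0277. The log2 difference with A771726 was -0.93 for NHP2 and -0.95 for NAF1, which did not pass the filter. GAR1 went the other way, at 0.28. DKC1, the gene of the pseudouridine synthase dyskerin, had 0.0650, 0.0713 and 0.0444. SMN1 and SMN2 had identical values and were counted once. Of 9 genes of the Cajal body list, 8 passed, with medians of -0.01 and -0.39, and 0 differed 2-fold from DMSO. Of all genes, 4.49% and 18.5% were at least 2-fold lower with leflunomide and A771726. COIL, the gene of coilin, had 0.0252, 0.0290 and 0.0140, and WRAP53 had 0.0345, 0.0368 and 0.0270. TERC, the telomerase RNA and itself an H/ACA RNA, had 0.175, 0.109 and 0.139.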

How the data were processed

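Global run-on sequencing reads the RNA that polymerases extend in isolated nuclei. Per the submitters' processing notes, Bowtie 0.12.9, bedtools and the build hg18 were used, and no source used here gives the counting settings. The authors deposited promoter and gene body signal densities and the traveling ratio as means of the 2 samples of each group, and the scale of the density is not stated. Their deposited fold columns were not used.

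Members and lists were chosen with earlier results of these data known. Log2 changes were taken on density + 0.0022 (gene body) or + 0.01735 (promoter), over genes whose mean density reached the 30th percentile, and they understate changes of low genes. Library pairs were solved on a grid of 4 decimals, a step tested on simulated data. limma 3.58.1 (R 4.3.3, trend and robust, all 3 groups, 3 residual degrees of freedom, Benjamini-Hochberg) was run on 4710 genes with 6 values, as an analysis of recovered values. The library of a value was taken as known where 1 assignment put more promoter values on whole reads. That rule was loosened after the effect of leaving out libraries had been seen, and the stricter rule used first is given among the alternatives.

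Named by rule were all SCARNA genes, the 10 densest members, up to 8 members in each direction at least 2-fold changed per comparison, the 5 highest and 5 lowest by ratio change per compound, and members sharing their hosts. Annotation and sequences came from GENCODE release 29 (GRCh38). No coordinates of the hg18 build were used. Not all of these members are described one by one, and the others enter the counts only.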

Additional observations from a re-analysis of the deposited data

How the results depend on the processing

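Of the values that answer a comparison, 218 kept their direction and stayed close to the reported value under the alternatives tried, 28 moved and 3 changed sign; the cause was not tested. With a pseudocount 5 times larger, the gene body counts went to 0 members at least 2-fold higher with leflunomide and to 10 lower for A771726 against leflunomide. Under that pseudocount the promoter counts were 1 higher and 5 lower with leflunomide, 1 and 20 with A771726, and 0 and 6 between the compounds. Centred on the median gene, the gene body median was -0.45 with A771726 (19 members at least 2-fold lower) and -0.078 between the compounds (1 higher, 8 lower). Centred ratios had medians of -0.27 with leflunomide, -0.26 with A771726 (23 members at least 2-fold lower) and -0.033 between the compounds, so the last pair changed sign. Over the 57 members with a promoter mean of at least 1 read in every group, 8 ratios were at least 2-fold higher with leflunomide, 8 lower with A771726 and 9 lower between the compounds, where the median was 0.31. A looser floor of 1 promoter read in all per group, applied first by mistake, kept the ratio medians and counts close to those reported. With 1 member per host gene, chosen after seeing the data, the ratio median with leflunomide was 0.0013. Leaving out 1 library was possible for 3227 genes and 39 members whose libraries are told apart, and gave from 0 to 1 limma calls with leflunomide, from 0 to 109 with A771726 (from 0 to 3 of them members) and 0 between the compounds. The 109, all lower, came without A771726 library 1, and the members were SCARNA1, SNORA30 and SNORA72, all of which had a higher value in the library left out. The single calls came without DMSO library 1. A group left with 1 library is assumed to vary like the others. Under the stricter library rule (1775 genes, 13 members; also chosen after seeing the data), the range was from 0 to 28 with A771726, from 0 to 1 of them members, and from 0 to 7 between the compounds. No paired analysis was possible because the tables hold group means without replicate letters. Depth limits the members of low density: the median was 12 gene body reads and 3.00 promoter reads per member and library.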
